A study of Mus musculus with 6 samples.

Results

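The guanylate-binding proteins (GBPs) are a family of large GTPases, and the 10 mouse genes described here, Gbp2 to Gbp11, were taken by symbol from the 24421 genes of an RNA-seq count matrix. All 10 were above the low-count limit of 1 CPM in each of the 6 libraries, and they stood among the 11658 genes tested. The matrix holds 6 libraries of regulatory T (Treg) cells, sorted as CD4+YFP+ cells from spleens of female C57BL/6 mice aged 8 to 11 weeks, with 3 libraries per genotype and 1 library per mouse. Control mice (WT) carried Foxp3Cre, a Cre recombinase linked to yellow fluorescent protein (YFP) and expressed from the Foxp3 locus. Knockout mice (KO) carried the same Foxp3Cre together with miR-142fl/fl, a floxed microRNA gene, so that miR-142 was deleted in cells that express Foxp3. The cells were not treated before RNA extraction, and the comparison asks how the transcripts of the family differ between Treg cells that lack miR-142 and those that have it.

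GBPs are best known as products of interferon-stimulated genes. Interferon gamma (IFNγ) binds the receptor pair Ifngr1 and Ifngr2, the Janus kinases Jak1 and Jak2 pass the signal on, and it reaches gamma-activated sites (GAS) in promoters, while Irf1 and related factors bind interferon-stimulated response elements (ISRE). The proteins hydrolyse GTP, assemble into coats on pathogen membranes and on the vacuoles that hold them, and help to activate inflammasomes. Some members, Gbp2 and Gbp5 among them, carry a C-terminal prenyl lipid that anchors them to membranes. Mouse GBP genes lie in a cluster on chromosome 3 and a cluster on chromosome 5.

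The sequences that bear on the family in these cells are the sites where miR-142 could pair with its transcripts and the interferon motifs in its promoters. The mature strands of miR-142, from RefSeq on GRCm38, lie on the plus strand at chr11:87756903-87756925 (3p) and chr11:87756867-87756887 (5p). Capitals mark the seed, bases 2 to 8 from the 5′ end.

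mmu-miR-142a-3p: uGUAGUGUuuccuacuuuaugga

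mmu-miR-142a-5p: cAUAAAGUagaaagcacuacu

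The longest annotated 3′ UTR of each member (GENCODE vM21, GRCm38) was searched for matches to these seeds and to the seed of the 3p isoform that starts 1 base later, called 3p.2. The letters searched were ACACTAC and CACTACA for 3p, AACACTA and ACACTAA for 3p.2, and ACTTTAT and CTTTATA for 5p, read on the transcript strand. They occurred in 2 of the 10 members. Gbp3 held an 8-base 3p match at base 402 of a 3′ UTR of 517 bases (chr3:142573094-142573101, plus strand). Gbp8 held a 7-base 3p.2 match at base 788 of 796 (chr5:105014155-105014161, minus strand). The windows around both sites are shown because they set these members apart from the other 8, and capitals mark the match.

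Gbp3 (chr3:142573088-142573107, plus strand): agttgtACACTACAgataaa

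Gbp8 (chr5:105014153-105014167, minus strand): agtcaaAACACTAta

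The longest 3′ UTRs of 10789 tested genes had a median length of 1185 bases. Among them, an 8-base 3p match occurred in 3.19%, any 3p match in 12.2% and any 3p.2 match in 15.4%. The share with a match to any of the seeds was not computed, and it cannot be below the 23.5% found for 5p alone. The 2 of 10 members with a match do not stand above that share. No 5p match was found in the 10 members, against 23.5% of those 3′ UTRs. A match is a run of letters and does not show that the microRNA binds there. For Gbp3, the study names the gene as a predicted target of the microRNA. From an earlier cross-linking data set of activated CD4+ T cells, it also reports a peak of Ago2 binding at the predicted site. Binding in the Treg cells described here was not tested.

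Promoter sequence, from 250 bases before to 50 after a RefSeq start site (GRCm38.p6), was matched for the 4 members on chromosome 3, namely Gbp2, Gbp3, Gbp5 and Gbp7. Both strands were searched for the GAS letters TTCNNNGAA and for the ISRE core GAAANNGAAA. The ISRE core was found in all 4 genes, always on the strand opposite to the gene, and in 3.44% of 32851 promoters of the same length. GAS letters were found in Gbp5 and Gbp7, each with 2 sites, and in 8.3% of all promoters, while 0.454% of all promoters held both motifs. The windows below show an ISRE core of each gene and a GAS of each gene that has one, as read on the plus strand, the strand of all 4 genes, with the motif in capitals and its first base counted from the start site.

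Gbp2 ISRE core at -59 (chr3:142620596-142620621): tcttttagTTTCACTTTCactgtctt

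Gbp3 ISRE core at -45 (chr3:142559991-142560016): ggacacagTTTCAGTTTCtatttccc

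Gbp7 ISRE core at -53 (chr3:142530275-142530300): gtgtgcagTTTCAGTTTCagttctcc

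Gbp5 ISRE core at -165 (chr3:142496761-142496786): ttgtgtagTTTCAATTTCagtttaga

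Gbp5 GAS at -52 (chr3:142496874-142496898): gccgttatTTCTCAGAAccaagcac

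Gbp7 GAS at -87 (chr3:142530241-142530265): gcagaagcTTCTCAGAAagtcagca

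The ISRE cores of Gbp3 and Gbp7 shared the same 10 letters. In Gbp3 a second core at -39 overlapped the one shown, and a second Gbp3 start site in the RefSeq table had neither motif. Further GAS letters lay at -245 in Gbp5 and at -106 in Gbp7.

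**Figure D1:**
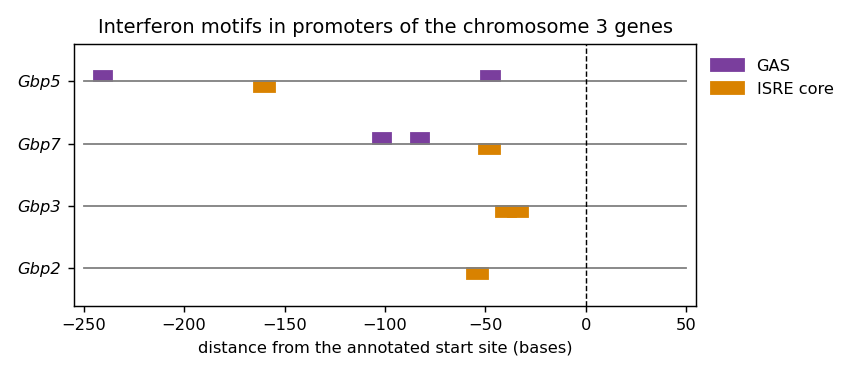
Positions of GAS (purple) and ISRE core (orange) letters in the promoters of the 4 chromosome 3 genes, in bases from the annotated start site (dashed line). ISRE cores of Gbp2, Gbp3 and Gbp7 sit between -59 and -39, that of Gbp5 lies at -165, and GAS letters appear only in Gbp5 and Gbp7 among these 4 promoters.

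Several measurements of the libraries bear on the family's values. Total counts ranged from 13883069 to 24042994 per library. Mir142b, the annotation antisense to the deleted gene, fell from 6.33 ± 2.50 CPM (read counts scaled to library size with TMM factors) in WT to 0.370 ± 0.0244 CPM in KO (SD, n = 3 per group, edgeR FDR = 0.00132), and Mir142 itself had 0 counts in all 6 libraries. Summed levels of 7 Treg markers lay between 4820 and 5550 CPM in WT and between 6760 and 7690 CPM in KO. Il2ra had the largest change of the 7, from a mean of 756 CPM in WT to 2580 CPM in KO. Foxp3 (566 to 689 CPM), Ctla4 (701 to 873 CPM) and Tnfrsf18 (184 to 324 CPM) also had higher KO means. Ikzf2 was nearly level (1380 and 1400 CPM). Cd4 (1020 to 876 CPM) and Cd3e (679 to 593 CPM) were lower in every KO library than in any WT library. KO replicate 1 stood apart in markers of other cells. Its 11 neutrophil markers summed to 938 CPM against 16.6 or less elsewhere, and 5 of them were at 0 in every WT library. Its 12 macrophage and monocyte markers summed to 2920 CPM against 159 or less, its 8 B cell markers to 290 CPM against 41.3 or less, and its 7 dendritic cell markers to 151 CPM against 1.22 or less, with 4 of these at 0 in every WT library. In that library 10 of the 11, 12 of the 12, 8 of the 8 and 7 of the 7 markers had their highest level. In KO replicates 2 and 3 the macrophage and monocyte markers summed to 159 and 80.0 CPM, against 48.8 to 56.8 CPM in WT. Most of each sum was Ccr2, at 81.5 and 60.9 CPM, which also had 37.2 to 49.1 CPM in WT. Vcam1 had 35.1 and 11.2 CPM, against 2.28 or less in WT. Csf1r had 12.6 and 0.89 CPM (0.83 or less in WT), and C1qa 6.51 and 0.274 CPM (0.387 or less in WT). Neutrophil markers in KO replicates 2 and 3 summed to 2.2 and 16.6 CPM, against 0.739 or less in WT. The B cell and dendritic cell sums of both libraries lay below those of WT. Leaving out KO replicate 1 thus does not leave KO libraries free of markers of other cells. GBPs are also expressed by such cells, so values without KO replicate 1 are given beside the members. The part of these cells in the values was not tested.

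Transcripts of 8 of the 10 GBP genes rose in KO Treg cells and those of 0 fell, at a false discovery rate (FDR) under 0.05 in edgeR's quasi-likelihood (QLF) test. Over all genes tested, 11.6% (1350) were called higher and 7.27% (847) lower. With library size as the only scaling these numbers were 1064 and 1201, and 6 members were called, Gbp8 and Gbp9 being lost. In the same 8 members the lowest KO library exceeded the highest WT library, a pattern found in 22.2% of all genes tested. The 2 members that did not pass were Gbp6 and Gbp10. No member was lower at an unadjusted p under 0.05, and DESeq2 also called 8 members higher and 0 lower, against 14.3% and 10.3% of all genes. The median log2 fold change over the 10 members was 0.88, where that over all genes tested was 0.02. Several members belong to the IFNγ-associated genes that the study displayed from these samples, and Gbp3 is named in its text, so these counts are not independent evidence of direction. In bulk RNA, a larger share of cells with the transcript and more transcript per cell cannot be told apart.

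**Figure D2:**
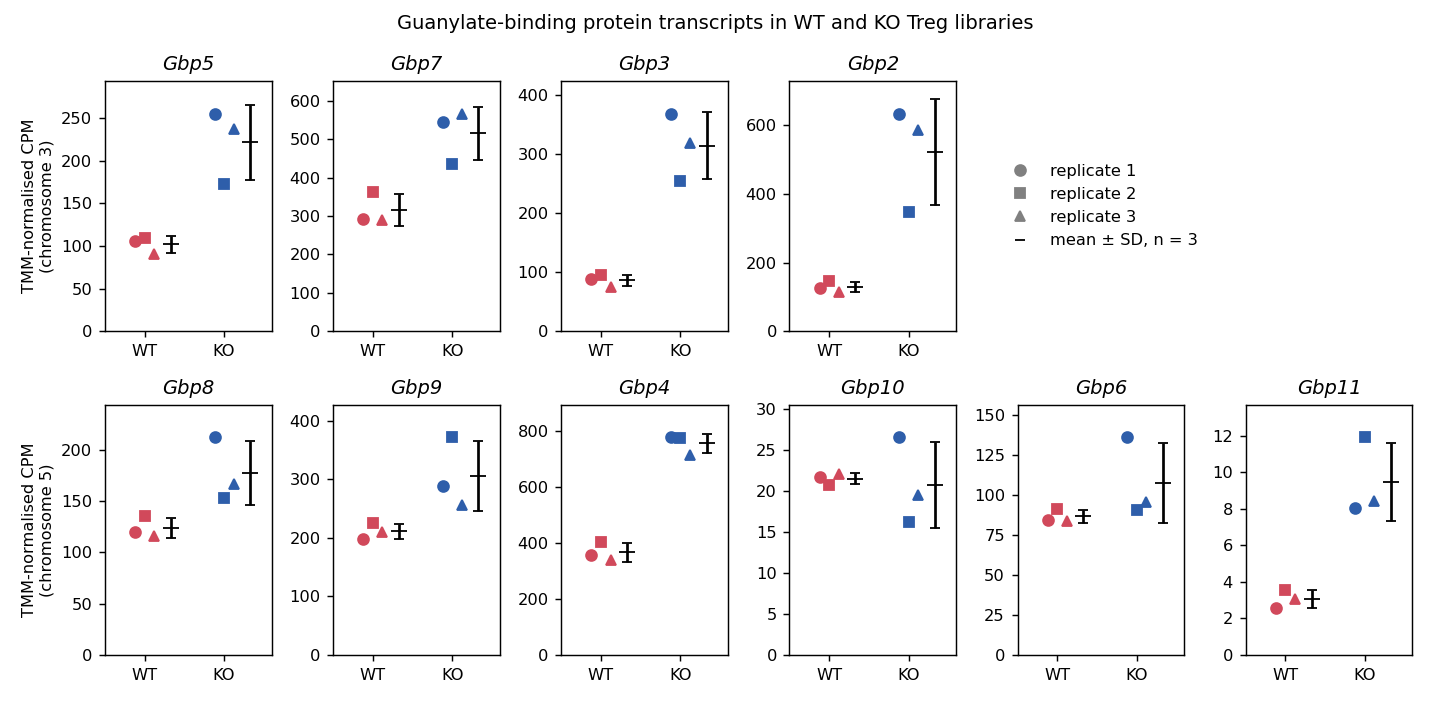
TMM-normalised CPM of each gene in the WT (red) and KO (blue) libraries, with 1 symbol per replicate number, each vertical axis starting at 0, and black marks for the mean ± SD of 3 libraries; the upper row holds the chromosome 3 genes and the lower row the chromosome 5 genes in map order. The KO symbols clear the WT symbols in 8 panels and overlap them for Gbp6 and Gbp10.

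Summed over the family, the 10 genes had 1400, 1590 and 1340 CPM in WT replicates 1, 2 and 3 and 3250, 2630 and 2970 CPM in KO replicates 1, 2 and 3. The KO mean was 2.04 times the WT mean, and the lowest KO library exceeded the highest WT library. GBP reads made up between 0.137% and 0.162% of all counts in WT libraries and between 0.25% and 0.315% in KO libraries.

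The chromosome 3 cluster spans 144 kb and holds Gbp5, Gbp7, Gbp3 and Gbp2 in that order, all on the plus strand. All 4 were called higher, with log2 fold changes from 0.71 to 2.02 and a median of 1.49. Gbp2, a prenylated member recruited to bacterial and parasite vacuoles (chr3:142620602-142638008), had 125, 146 and 115 CPM in WT replicates 1 to 3 and 634, 346 and 585 CPM in KO replicates 1 to 3. KO replicate 2 was the lowest of the KO libraries by a wide margin and still lay well above every WT library. Its log2 fold change, 2.02 (SE 0.23, 95% interval 1.48 to 2.56, FDR = 0.0025), was the largest of the family. Without KO replicate 1 it was 1.84 (FDR = 0.00123).

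Gbp3, the member with the 8-base miR-142-3p match printed above (chr3:142560026-142573209), had 88.6, 94.9 and 75.7 CPM in WT and 369, 255 and 320 CPM in KO. The groups were far apart, and KO replicate 2 was again the lowest KO library. Gbp3 rose by 1.87 on the log2 scale (SE 0.16, 95% interval 1.5 to 2.23, FDR = 0.000996), and by 1.72 without KO replicate 1 (FDR = 0.000257). Its FDR was the smallest of the 10 members, and its 95% interval overlapped that of Gbp2. Whether the match bears on the rise of Gbp3 was not tested.

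Gbp5, a prenylated member that promotes inflammasome assembly (chr3:142493978-142522344), had 106, 109 and 90.1 CPM in WT and 255, 172 and 237 CPM in KO. It followed the KO order of Gbp2 and Gbp3, with replicate 1 highest and replicate 2 lowest. Its log2 fold change was 1.12 (SE 0.16, FDR = 0.00497). Without KO replicate 1 it was 0.99 (FDR = 0.0042).

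Gbp7, reported to act in oxidant defence (chr3:142530342-142550149), had 293, 363 and 290 CPM in WT and 544, 437 and 567 CPM in KO. It was the only member whose highest value was in KO replicate 3. The groups did not overlap, and WT replicate 2, the highest of its group, came nearest to KO replicate 2, the lowest of its group. Its log2 fold change was 0.71 (SE 0.14, 95% interval 0.38 to 1.03, FDR = 0.0149), the smallest on chromosome 3. The call was kept without KO replicate 1 (0.65, FDR = 0.0236), and was lost without KO replicate 3 (0.62, FDR = 0.051), without WT replicate 1 (0.63, FDR = 0.0688) or without WT replicate 3 (0.65, FDR = 0.0704).

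The chromosome 5 cluster spans 332.3 kb and holds Gbp8, Gbp9, Gbp4, Gbp10, Gbp6 and Gbp11, all on the minus strand. Of these, 4 were called higher, with a median log2 fold change of 0.52 over all 6 and a range from -0.05 to 1.62. Gbp4 (chr5:105115767-105139586), the member with the most reads, had 358, 404 and 338 CPM in WT and 777, 774 and 715 CPM in KO. Its KO libraries differed by a factor of 1.09 only, and all were clear of WT. The log2 fold change was 1.04 (SE 0.10, 95% interval 0.81 to 1.28, FDR = 0.00135), and 1.01 without KO replicate 1 (FDR = 0.00129).

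Gbp11 (chr5:105323042-105346472), which GENCODE annotates as a polymorphic pseudogene, was the least abundant member. It had 42, 86 and 55 counts in WT replicates 1 to 3 and 145, 157 and 123 counts in KO replicates 1 to 3, or 2.59, 3.53 and 3.04 CPM against 8.05, 11.9 and 8.42 CPM. KO replicate 2, the lowest KO library for most members, was here the highest, and KO replicate 1 was the lowest. The log2 fold change was 1.62 (SE 0.24, 95% interval 1.07 to 2.18, FDR = 0.00541), and 1.70 without KO replicate 1 (FDR = 0.00339).

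Gbp9 (chr5:105077630-105139539) had 199, 225 and 210 CPM in WT and 288, 372 and 256 CPM in KO. Its KO libraries were all above WT, with replicate 2 highest. The log2 fold change was 0.53 (SE 0.14, 95% interval 0.19 to 0.87, FDR = 0.0434), and 0.55 without KO replicate 1 (FDR = 0.0455). The call was lost without WT replicate 1 (0.46, FDR = 0.147), WT replicate 2 (0.58, FDR = 0.112) or WT replicate 3 (0.52, FDR = 0.134).

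Gbp8 (chr5:105014150-105139540), which holds the 7-base 3p.2 match, had 120, 135 and 116 CPM in WT and 212, 153 and 167 CPM in KO. The groups did not overlap, and KO replicate 1 was the highest library. Its log2 fold change of 0.52 (SE 0.14, 95% interval 0.20 to 0.83, FDR = 0.0387) was 0.35 without KO replicate 1 (FDR = 0.0568), where the call was lost. It was also lost without KO replicate 3 (0.54, FDR = 0.0722), WT replicate 1 (0.47, FDR = 0.133), WT replicate 2 (0.58, FDR = 0.0916) or WT replicate 3 (0.47, FDR = 0.138), so Gbp8 was the least stable of the called members.

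Gbp6 (chr5:105270702-105293698) had 84.6, 91.5 and 83.8 CPM in WT and 136, 90.8 and 95.3 CPM in KO. KO replicate 2 lay inside the WT range, KO replicate 3 was slightly above it, and KO replicate 1 was the highest library. The log2 fold change was 0.31 (95% interval -0.06 to 0.68, FDR = 0.209), and 0.09 without KO replicate 1 (95% interval -0.13 to 0.30, FDR = 0.572). Gbp10 (chr5:105215699-105239533) had 21.7, 20.7 and 22.0 CPM in WT and 26.5, 16.2 and 19.5 CPM in KO. KO replicate 1 was above WT and the other two KO libraries were below it. Its log2 fold change was -0.05 (95% interval -0.48 to 0.38, FDR = 0.877). Without KO replicate 1 it was -0.28 (FDR = 0.201), and without KO replicate 2 it turned to 0.11 (FDR = 0.638).

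**Figure D3:**
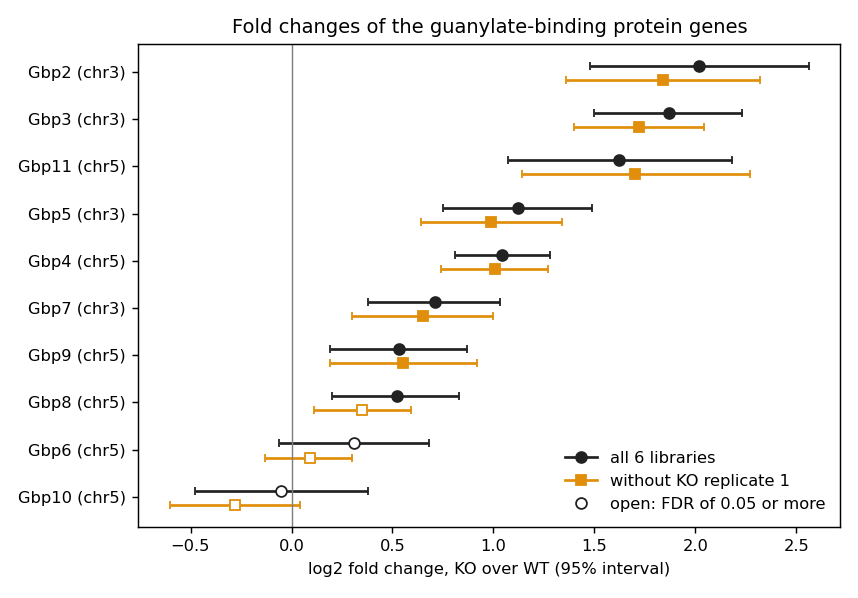
Log2 fold change of each gene, KO over WT, with its 95% interval from the fit, for all 6 libraries (circles) and without KO replicate 1 (squares); open symbols have an FDR of 0.05 or more. Gbp2, Gbp3 and Gbp11 have the highest values, and the intervals of Gbp6 and Gbp10 include 0 in both fits.

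Leaving out each library in turn left between 5 and 8 members called higher. The number was 7 without KO replicate 1, where 9.69% of all genes were called higher, 8 without KO replicate 2 (12.3% of all genes) and 6 without KO replicate 3 (7.62%). It was 5 without WT replicate 1 (5.78%), 6 without WT replicate 2 (4.18%) and 5 without WT replicate 3 (4.81%). Gbp2, Gbp3, Gbp4, Gbp5 and Gbp11 were called in all 6 of these fits.

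Members differed in how far their reads are their own. The members on chromosome 5 are close copies, with coding sequences 89.6% to 98.4% identical between pairs, and Gbp6 and Gbp10 are the closest of all pairs at 98.4%. On chromosome 3, Gbp3 and Gbp7 were 78.3% identical and Gbp2 and Gbp5 68.3%. Reads were 51 bases long, and so each window of 51 bases in the annotated transcripts of a member was looked for in every other gene. For Gbp10, 83.8% of windows also occurred in another gene, 72.9% in Gbp6. For Gbp6 the share was 70.5%, with 45.7% of its windows found in Gbp10 and 64.8% in Gm43302, an annotated gene that overlaps both and is not analysed here. In the remaining 8 members the share lay between 1.38% in Gbp5 and 18.6% in Gbp11. The 2 members that did not pass the test were the 2 with the largest shares, and their values are uncertain. How reads with several matches were treated is not given in the sources used here, and the part of it in these values was not tested. The annotations of Gbp4, Gbp8 and Gbp9 also overlap and share 60 or 61 exonic bases per pair.

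**Figure D4:**
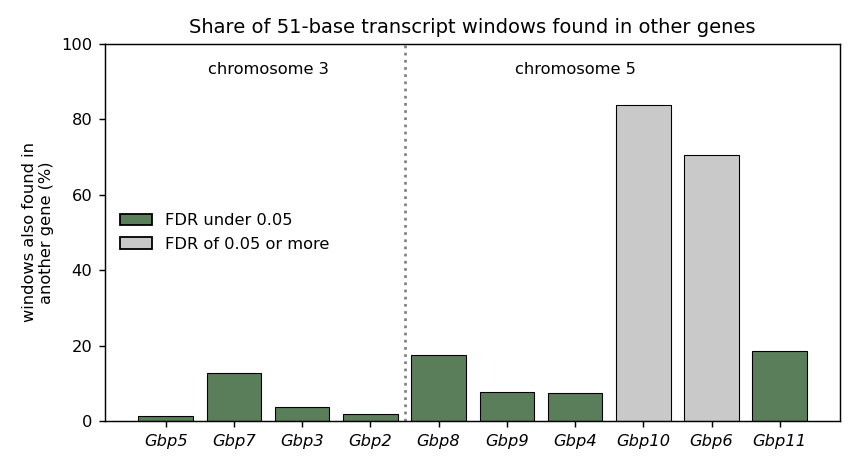
Percent of 51-base transcript windows of each gene that also occur in another annotated gene, in map order, with genes at an FDR under 0.05 in green and the others in grey. Gbp10 (83.8%) and Gbp6 (70.5%) stand above the other 8 genes, which reach 18.6% at most.

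Levels can be compared between members only per length. Divided by the length of all exons, the WT levels were highest for Gbp7, at 56.2 ± 7.35 CPM per kb (SD, n = 3), then Gbp2 (51.2 ± 6.27 CPM per kb) and Gbp4 (48.9 ± 4.52 CPM per kb), whose ranges of mean ± SD overlapped. Gbp9 (40.8 ± 2.56 CPM per kb) and Gbp8 (36.0 ± 2.89 CPM per kb) came next, with ranges of mean ± SD that overlapped, followed by Gbp3 (26.5 ± 3.00 CPM per kb). Gbp5 (15.3 ± 1.54 CPM per kb) and Gbp6 (14.5 ± 0.705 CPM per kb) were not separated, and Gbp10 (5.55 ± 0.179 CPM per kb) and Gbp11 (1.13 ± 0.174 CPM per kb) were lowest.

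In KO the order of levels per length was another one. Gbp2 led with 207 ± 61.1 CPM per kb, ahead of Gbp4 (101 ± 4.65 CPM per kb), Gbp3 (96.5 ± 17.5 CPM per kb) and Gbp7 (91.9 ± 12.4 CPM per kb), whose ranges of mean ± SD overlapped. Gbp7 went from rank 1 to rank 4 and Gbp3 from rank 6 to rank 3 by exon length, and from 1 to 3 and from 8 to 4 by windows found in no other gene. Counting only such windows as length moved Gbp6 to 48.2 ± 2.33 CPM per kb and Gbp10 to 34.7 ± 1.12 CPM per kb in WT, ranks 4 and 7, so the order of levels rests in part on how shared sequence is treated.

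Within a library the make-up of the family can be read without regard to scaling. Gbp2 took 8.91%, 9.18% and 8.58% of GBP counts in WT replicates 1 to 3 and 19.5%, 13.2% and 19.7% in KO replicates 1 to 3. Gbp3 went from 5.97 ± 0.353% to 10.6 ± 0.838% of GBP counts. Gbp7 went from 21.8 ± 0.937% to 17.5 ± 1.39%, Gbp8 from 8.58 ± 0.0844% to 5.98 ± 0.482%, and Gbp6 from 6.01 ± 0.249% to 3.62 ± 0.513%. For each of these 5 members the groups did not overlap. The exact two-sided permutation test gave p = 0.1, the smallest that 3 libraries against 3 allow. The same held for Gbp10, with a lower share in KO, and for Gbp11, with a higher one. The groups overlapped for Gbp4, Gbp5 and Gbp9. The shares of a library have a fixed total, so larger rises of some members lower the shares of others. In CPM, Gbp7 and Gbp8 were called higher (log2 fold changes 0.71 and 0.52), and Gbp6 and Gbp10 were not called (0.31 and -0.05). No background was computed for shares. Gbp4 had a similar share in both groups, at 25.4 ± 0.255% and 25.8 ± 3.16% (exact permutation p = 1.0).

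Ratios between members moved accordingly. There were 0.425, 0.402 and 0.397 Gbp2 counts per Gbp7 count in WT and 1.16, 0.793 and 1.03 in KO. Gbp3 counts per Gbp7 count went from 0.275 ± 0.0238 to 0.609 ± 0.0606. For the near-identical pair, Gbp10 counts per Gbp6 count were 0.257, 0.226 and 0.263 in WT and 0.195, 0.178 and 0.205 in KO. None of these 3 ratios overlapped between the groups, with an exact permutation p of 0.1 each, the smallest possible.

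The KO libraries differed among themselves in a way that many members shared. KO replicate 1 was the highest KO library for 7 of the 10 members, KO replicate 2 for Gbp9 and Gbp11, and KO replicate 3 for Gbp7. KO replicate 2 was the lowest for 7 members. Its value exceeded the WT mean by a factor of 3.89 for Gbp11, 2.95 for Gbp3 and 2.69 for Gbp2, and by 1.05 for Gbp6. The ratio of KO replicate 1 to the mean of the other KO libraries was 1.49 for Gbp10, 1.46 for Gbp6 and 1.36 for Gbp2, but 0.916 for Gbp9 and 0.793 for Gbp11. The markers of other cells given above were also highest in KO replicate 1.

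Of 20 genes of IFNγ signalling, 19 were tested, and 7 were called higher and 0 lower, beside 11.6% and 7.27% of all genes tested, with a median log2 fold change of 0.22. At an unadjusted p under 0.05, 9 were higher and 1 lower, and DESeq2 called 7 higher and 1, Ptpn11, lower. At the receptor, Ifngr1 had 190, 190 and 209 CPM in WT and 482, 339 and 292 CPM in KO (log2 fold change 0.92, SE 0.18, FDR = 0.0152). Ifngr2, its partner, had 55, 51.1 and 72.7 CPM in WT and 90.6, 85.6 and 83.9 CPM in KO (0.54, FDR = 0.0361), and was not called without KO replicate 1 (0.49, FDR = 0.0568). Both receptor chains were higher in every KO library than in any WT library.

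Irf1, an interferon-induced factor that binds ISRE, had 402, 365 and 451 CPM in WT and 694, 509 and 526 CPM in KO, groups that did not overlap but missed the threshold (0.51, FDR = 0.051). Ifng itself had 5.85, 13 and 24.6 CPM in WT and 15.0, 5.68 and 4.38 CPM in KO, with overlapping groups (-0.78, 95% interval -2.21 to 0.64, FDR = 0.402).

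Other called genes of the list were Socs3 (log2 fold change 1.07, FDR = 0.00088) and Socs1 (0.55, FDR = 0.0486), which encode feedback inhibitors, and the phosphatase gene Ptpn1 (0.69, FDR = 0.00304). Socs1 was not called without KO replicate 1 (0.42, FDR = 0.0871). Ciita, the MHC class II transactivator, went from 1.02 ± 0.124 CPM to 98.8, 3.71 and 4.58 CPM in KO replicates 1, 2 and 3 (5.12, FDR = 0.0432). KO replicate 1, the library with the highest marker sums of macrophages, B cells and dendritic cells, set most of that size. Without that library, Ciita was at 2.0 (FDR = 0.00286). Without KO replicate 1, the list of 19 genes had 6 higher and 0 lower genes, beside 9.69% and 7.59% of all genes. It had 4 higher without KO replicate 3 (7.62% of all genes), 2 without WT replicate 1 (5.78%) or WT replicate 2 (4.18%), and 3 without WT replicate 3 (4.81%).

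Of 12 other interferon-inducible GTPases, 11 were tested, and 4 were called higher and 0 lower, beside the same 11.6% and 7.27% of all genes, with a median log2 fold change of 0.59. At an unadjusted p under 0.05, 6 were higher and 1 lower, and DESeq2 called 5 higher and 0 lower. The immunity-related GTPase gene Iigp1 had 122, 111 and 87.8 CPM in WT and 487, 247 and 349 CPM in KO (1.75, SE 0.25, FDR = 0.00497). Igtp (1.01, FDR = 0.00877), Tgtp1 (1.02, FDR = 0.0249) and Gm12250 (1.21, FDR = 0.0379) also rose. Without KO replicate 1, 3 genes were called higher, beside 9.69% of all genes, and Gm12250 was not among them (0.96, FDR = 0.0559). The list had 6 higher genes without KO replicate 2 (12.3% of all genes), 2 without KO replicate 3 (7.62%), WT replicate 1 (5.78%) or WT replicate 3 (4.81%), and 1 without WT replicate 2 (4.18%).

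Gbp2b lies between Gbp3 and Gbp2 in the chromosome 3 cluster and is an annotated family member outside the 10 described here. It had 11.3, 11.2 and 8.13 CPM in WT and 47.8, 5.0 and 9.24 CPM in KO. KO replicate 1 alone was high, and KO replicate 2 was below every WT library. The log2 fold change was 1.02 (95% interval -0.72 to 2.77, FDR = 0.373) and turned to -0.53 without KO replicate 1 (FDR = 0.241). Gbp3 and Gbp2, on either side of it, were higher in all 3 KO libraries than in any WT library.

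**Figure D5:**
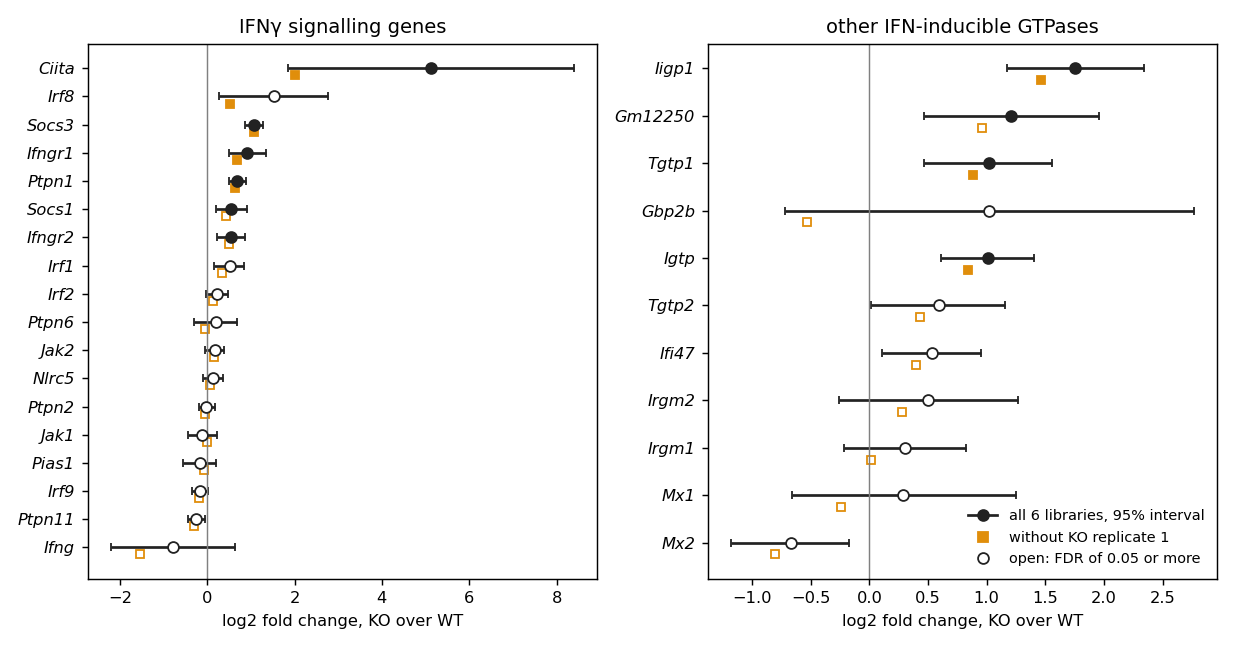
Log2 fold changes, KO over WT, of 18 of the tested IFNγ signalling genes (left) and other interferon-inducible GTPases (right), with 95% intervals for all 6 libraries (circles) and point values without KO replicate 1 (squares); filled symbols have an FDR under 0.05. Ciita, Ifngr1, Socs3, Ptpn1, Iigp1, Igtp and Tgtp1 are filled in both fits, while Gbp2b changes side without KO replicate 1.

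Genes known for the type I interferon response are given for comparison. Of 15 such genes, 1 was called higher (Zbp1, log2 fold change 0.46, FDR = 0.0229) and 1 lower (Usp18, -0.56, FDR = 0.0445), with a median of 0.06, and neither count stood above the 11.6% and 7.27% of all genes. Without KO replicate 1, 1 was called higher and 5 lower, with a median of -0.30, against 7.59% of all genes called lower. Without KO replicate 3 or any 1 of the WT libraries, 0 were called in either direction by edgeR. Whether type I genes and GBP members differ in response was not tested.

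A further 27 genes came from lists of prenylation enzymes, ATG8 proteins and their conjugation, inflammasome genes and atlastins. Of these, 25 were tested, and 2 were called higher and 0 lower, a share no greater than that of all genes. At an unadjusted p under 0.05, 6 were higher and 0 lower, and DESeq2 called 2 higher and 0 lower. The 2 were Fntb, a subunit of the farnesyltransferase that attaches a prenyl lipid (22.2, 23.9 and 24.7 CPM in WT and 40.1, 45.3 and 45.0 CPM in KO, log2 fold change 0.88, FDR = 0.00261), and Casp1, the inflammasome protease (46.4, 43.4 and 42.0 CPM in WT and 82.8, 65.0 and 67.8 CPM in KO, 0.71, FDR = 0.00771). Both were called without KO replicate 1 as well. The other 5 prenylation enzyme genes were not called, Pggt1b among them (log2 fold change 0.08, FDR = 0.702). Which of these enzymes acts on which member was not tested. None of the 10 genes of ATG8 proteins and their conjugation was called by edgeR or DESeq2. The same held for the 3 atlastins, the GTPases most similar in fold to GBPs. At an unadjusted p under 0.05 the ATG8 and atlastin lists had 2 and 0 genes higher.

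Genes around the clusters were read in the same way. Of 10 other protein-coding genes that start within 250 kb of either cluster, 9 were tested, and 1, Pkn2, was called higher and 0 lower, a share near the 11.6% of all genes called higher. Pkn2, a protein kinase gene whose start site lies 244 kb from the chromosome 3 cluster, had 94.0, 112 and 110 CPM in WT. In KO it had 132, 159 and 132 CPM (0.42, FDR = 0.042). At an unadjusted p under 0.05, 2 neighbours were higher and 2 lower, and DESeq2 called 2 higher and 1 lower. Pkn2 was called without KO replicate 1 (0.45, FDR = 0.041), while leaving out any of the other 5 libraries left 0 neighbours called higher.

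The genes whose pattern over the 6 libraries was most like the mean standardised log2 CPM of the 10 members were Mvp (Pearson's r = 0.9998), the vault protein gene, then Vps26a (0.9965), Ell2 (0.9964), Tpp1 (0.9956) and Itgav (0.9938). These are descriptions over 6 libraries that share the contrast of genotypes, chosen as the highest of 11648 genes, of which 946 had an r over 0.9. Mvp had 56.7, 65.1 and 55.4 CPM in WT and 135, 95.8 and 106 CPM in KO, again with KO replicate 1 highest and KO replicate 2 lowest.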

How the data were processed

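RNA-seq was measured in 6 libraries of sorted splenic Treg cells, 3 WT and 3 KO. Per the methods of the study and the submitters' processing notes, single-end reads of 51 bases were mapped to the mm10 assembly by HISAT, and featureCounts then summed them per gene, ignoring strand. The authors deposited raw counts per gene without normalization, whole numbers for 24421 genes, of which 6836 had 0 counts in every library. The matrix has no column of any other sample.

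The 11658 genes above 1 CPM in 3 or more libraries entered edgeR's QLF test (edgeR 4.0.16, R 4.3.3) after TMM scaling, at a Benjamini-Hochberg FDR under 0.05. The filter and scaling are those of the study's methods, whose criterion of 3 edgeR tests together was run as an alternative. P-values of the fits set the difference between KO and WT against the spread between the 3 mice of each group. The fits estimate that spread with information shared across genes. Total counts of 13883069 or more put 3 counts, taken as the floor, between 0.125 and 0.216 CPM. Single values used an exact two-sided permutation test. Gene models, 3′ UTRs and windows came from GENCODE vM21 (GRCm38, the assembly that mm10 names), and promoters and microRNAs from RefSeq tables. The edgeR fit was tested on simulated counts with known changes.

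The 10 members, the gene lists and the alternatives were chosen with earlier results of these data known. Named genes were all members, up to 4 called genes per direction of each other list by smallest p, Irf1, Ifng, Ifngr1 and Ifngr2 in any case, every called neighbour, and the 5 genes most like the members. Gbp2b, Ciita, Socs1, Pggt1b, the single cell type markers and the DESeq2 call of Ptpn11 were named after their values were seen. The values of 1 gene the rule names are not reported here. Alternatives covered RLE size factors, library size alone, DESeq2 1.42.0, filters, robust QLF, the 3 edgeR tests together, a block on replicate number, unique length and leaving out each library.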

Additional observations from a re-analysis of the deposited data

How the results depend on the processing

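The 8 calls among the members were also made with RLE size factors, DESeq2, filterByExpr, robust QLF and the 3 edgeR tests together. Library size alone and no filter each left 6, without Gbp8 and Gbp9. Leaving out 1 library left 5 to 8 members higher and 0 lower, and the fold change of Gbp10, -0.05 with all libraries, ranged from -0.28 without KO replicate 1 to 0.11 without KO replicate 2, where its sign turned. Unique windows in place of exon length moved the WT level of 6 members by more than 1 SD.

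The replicate numbers did not pair the samples. Deviations from the group means correlated at 0.0731, -0.0124 and -0.188 for the pairs with number 1, 2 and 3. With a replicate block, 7 members were higher (Gbp8 was not called), all genes had 1061 higher and 545 lower calls, and 0 type I genes were lower.

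Across the whole table, 1350 genes were higher and 847 lower, against 1064 and 1201 with library size alone. Leave-one-out fits gave 483 to 1403 higher and 208 to 937 lower genes, both lowest without WT replicate 2. IFNγ signalling genes higher were 4 with no filter and 2 to 9 in leave-one-out fits, 2 without WT replicate 1 or 2 and 3 without WT replicate 3. IFNγ signalling genes lower were 1 with DESeq2 and 1 with library size alone, and 0 to 1 with a library left out. Other GTPases higher were 1 to 6, lowest without WT replicate 2. Type I genes were 0 to 1 higher and 0 to 5 lower, the 5 without KO replicate 1, and 0 lower with no filter. Neighbours higher were 2 with DESeq2, 0 with library size alone, 0 with no filter and 0 to 1 in leave-one-out fits. Neighbours lower were 1 with DESeq2, 1 with library size alone and 0 to 1 in leave-one-out fits. The cause of these changes was not tested. With 3 libraries per group and a common biological coefficient of variation of 0.212, members with log2 fold changes near 0.5 (Gbp8, Gbp9) lay close to the threshold.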
